A study of Mus musculus with 17 samples.

Results

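The genes described are those of the insulin-like growth factor (IGF) axis: the ligand genes Igf1 and Igf2, the receptor gene Igf1r, the binding protein genes Igfbp2 to Igfbp7, and the protease gene Pappa. They were chosen by symbol, and every row of the count table that carried a listed symbol was used. Of the 10 listed genes 9 were analysed, among 15062 genes in the table, and Igf2 was not analysed here.

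RNA was sequenced from 17 libraries of the mouse myoblast line C2C12, whose cells can fuse into muscle fibres in culture. Every line was grown in DMEM with 10% fetal bovine serum, a growth medium, and each expressed a different construct: empty pMSCV, a retroviral expression vector, or SRF, SRF-FOXO1, SRF-ICA1L, SRF-PDGFRB or SRF-RELA. Serum response factor (SRF) is a transcription factor that binds the CArG box, and the last 4 constructs carry the name of a second gene beside it. SRF-PDGFRB had 2 libraries and the other groups 3 each. The labels do not say how many clones a line holds or whether replicates were separate cultures, so p-values measure only the spread between these libraries. Library totals lay between 20901442 and 23543734 counts. Srf, the gene in every construct but the empty one, was higher in SRF than in pMSCV by a log2 fold change of 3.79 (adjusted p = 0.00158), and in none of the 4 fusion lines did it pass the test against pMSCV. All 6 myoblast markers were detected in every library. The lowest was Myf5, with a minimum of 4.41 CPM, and the highest Des, which encodes the muscle intermediate filament desmin, with a median of 305 CPM. CPM is the usual read count scaled to the size of its library, here with TMM factors.

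IGF1 and IGF2 are secreted peptides that bind the IGF1 receptor, a tyrosine kinase that signals through IRS adaptors to the PI3K-AKT pathway. The IGF binding proteins hold these ligands outside the cell, where they can prolong their life, block their access to the receptor or deliver them, and PAPP-A, the product of Pappa, is a metalloproteinase that cleaves IGFBP4 and IGFBP5 and so frees ligand. In skeletal myoblasts IGF signalling supports both proliferation and differentiation, and IGFBP5 is a main binding protein secreted by C2C12 cells.

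Igfbp2 and Igfbp5, the binding protein genes with the largest drop in SRF-FOXO1 below, are neighbours in the genome. In GRCm38, with the GENCODE M21 annotation, Igfbp2 lies on chromosome 1 from 72824503 to 72852474 on the plus strand, and Igfbp5 from 72857932 to 72874884 on the minus strand. Their 3′ ends face each other with 5457 bases between them, so their promoters are at the outer ends of the pair. The 250 bases before each RefSeq start (GRCm38.p6) are shown because both genes had their lowest group means in SRF-FOXO1 and because SRF binds DNA directly. Igfbp2 has a pair of entries in the table and the upstream one is given. It is chr1:72824230-72824479 on the plus strand, and the Igfbp5 window is chr1:72874866-72875115 on the minus strand. Both are written 5′ to 3′, and capitals mark an E-box, the hexamer CANNTG bound by MyoD and other basic helix-loop-helix proteins.
Igfbp2: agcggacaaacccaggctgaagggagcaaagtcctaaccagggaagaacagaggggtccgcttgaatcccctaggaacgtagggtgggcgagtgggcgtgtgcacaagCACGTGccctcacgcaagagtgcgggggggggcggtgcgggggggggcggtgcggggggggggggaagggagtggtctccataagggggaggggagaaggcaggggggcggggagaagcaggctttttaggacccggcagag
Igfbp5: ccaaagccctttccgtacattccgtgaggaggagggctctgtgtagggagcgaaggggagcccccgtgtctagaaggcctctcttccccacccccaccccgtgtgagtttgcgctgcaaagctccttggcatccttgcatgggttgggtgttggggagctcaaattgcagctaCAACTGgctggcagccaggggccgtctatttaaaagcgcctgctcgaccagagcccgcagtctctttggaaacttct
The Igfbp2 window held 1 E-box, starting at position -142 from the RefSeq start, and the Igfbp5 window 1 at -77. Over both strands, 66.2% of 32851 mouse promoter windows of that length held an E-box. None of the 9 entries that matched 8 of the members held a CArG box, which 1.47% of all windows did. These are matches of letters within the window and say nothing of where a factor binds.

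Levels of different genes were compared per kilobase of exon, as the median CPM per kilobase over the 17 libraries. Igfbp6 stood highest at 214, followed by Igfbp5 at 95.3, Igfbp7 at 89.2 and Igfbp2 at 49.1. Igfbp3 at 3.82 and Igf1r at 3.50 were far lower, and Igfbp4 at 0.973, Pappa at 0.332 and Igf1 at 0.255 lowest. So these cells carried 4 abundant binding protein transcripts and little of the transcripts for the ligand Igf1 and the protease.

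The members also differed in how far they varied. The highest library exceeded the lowest by 505 times for Igf1, 205 times for Pappa, 83.8 times for Igfbp3, 70.1 times for Igfbp2 and 48.4 times for Igfbp5, against a median of 2.53 times over all genes. Igfbp7 spanned 7.58 times, Igfbp4 6.78 times, Igfbp6 2.92 times and the receptor gene Igf1r 2.13 times. Much of that spread lay inside groups. The within-group SD of log2 CPM of Igf1 was larger than that of 99.9% of genes, and those of Igfbp5, Igfbp2, Igfbp3 and Pappa were larger than those of 97.7%, 97.6%, 97.5% and 95.9%. The plot of all 9 genes by library shows this.

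**Figure D1:**
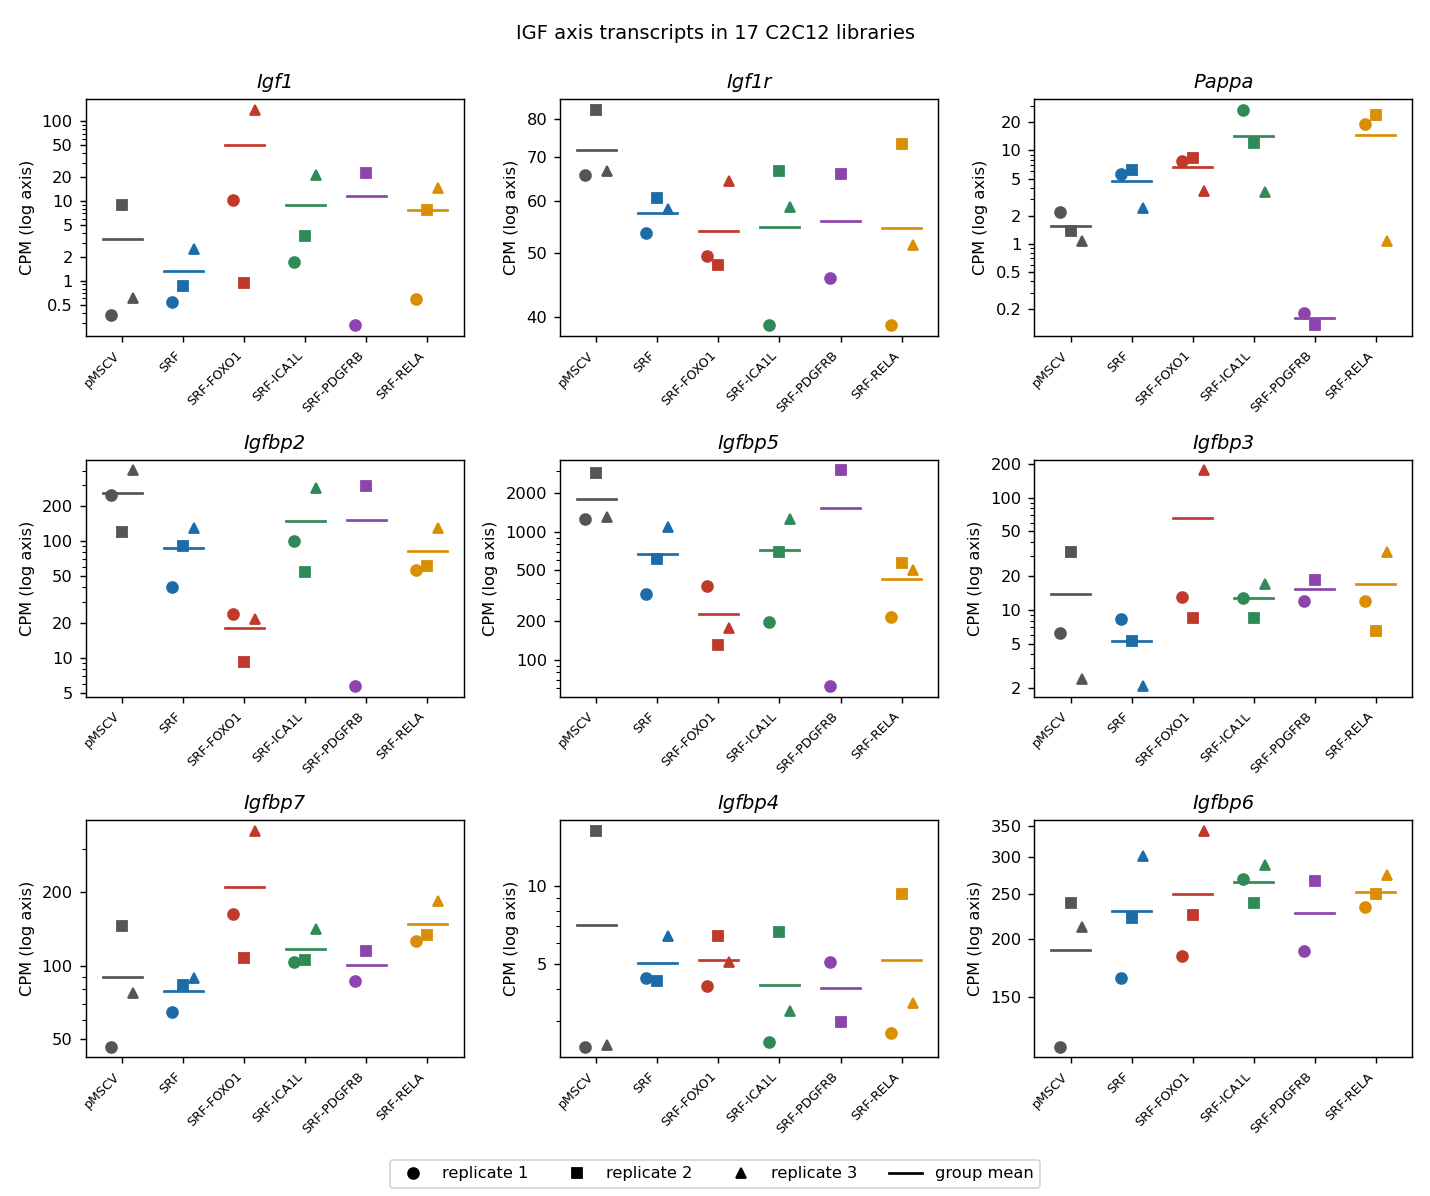
CPM on a log axis, with its own range for each of the 9 genes; points are the 17 libraries set out by group, shapes give the replicate number and lines the group means. Igf1r spans 38.8 to 82.6 CPM and Igfbp6 117 to 342 CPM, while Igf1 runs from 0.276 to 139 CPM and Pappa from 0.133 to 27.3 CPM.

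Among the 9 members, the clearest separations were those of Igfbp2, Igfbp5 and Pappa. Igfbp2 and Igfbp5 were lower in SRF-FOXO1 than in pMSCV in every library. Pappa lay above pMSCV in every SRF, SRF-FOXO1 and SRF-ICA1L library and below it in both SRF-PDGFRB libraries. Full separation from pMSCV was not rare over all genes, since 23.0% showed it for SRF-FOXO1. For SRF-PDGFRB the share was 15.9%, while SRF-ICA1L had 10.2% and SRF 9.16%. None of these differences in Igfbp2, Igfbp5 and Pappa passed when all 17 libraries were fitted by group. The threshold was 0.05 on the adjusted p (edgeR quasi-likelihood test, Benjamini-Hochberg over all 15062 genes). Against pMSCV 0 of 9 members passed in each of the 5 comparisons, where the share of all genes passing was 0.00664% for SRF, 0.710% for SRF-FOXO1, 0% for SRF-ICA1L, 0.0199% for SRF-PDGFRB and 0% for SRF-RELA. Against SRF 0 of 9 passed in each of the 4 comparisons, with shares of 0.00664% for SRF-FOXO1, 0% for SRF-ICA1L, 0.0531% for SRF-PDGFRB and 0.00664% for SRF-RELA. The comparisons against pMSCV share its 3 libraries, and those against SRF share its 3.

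At an unadjusted p under 0.05 by edgeR, members against pMSCV numbered 0 of 9 for SRF (3.34% of all genes), 4 for SRF-FOXO1 (20.9%), 1 for SRF-ICA1L (6.23%), 1 for SRF-RELA (8.05%) and 1 for SRF-PDGFRB (7.70%). Against SRF they numbered 4 for SRF-FOXO1 (19.2%), 0 for SRF-ICA1L (1.56%), 1 for SRF-RELA (3.21%) and 1 for SRF-PDGFRB (5.03%). DESeq2 passed Igfbp2, Igfbp5 and Igfbp7 in SRF-FOXO1 against pMSCV, 3 of 9 members where 9.07% of genes passed. It passed Igf1, Igfbp3 and Igfbp7 in SRF-FOXO1 against SRF, 3 of 9 where 4.30% did. Pappa alone passed for SRF-ICA1L against pMSCV (0.324% of genes), for SRF-RELA against pMSCV (0.712%) and for SRF-PDGFRB against SRF (0.386%). In the other 4 comparisons DESeq2 passed 0 members, with 0.0266% of genes for SRF and 0.501% for SRF-PDGFRB against pMSCV, and 0.0133% for SRF-ICA1L and 0.0692% for SRF-RELA against SRF.

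The members were split in direction in 4 of the 5 lines, while in SRF 7 of 9 lay below pMSCV. The median log2 fold change of the 9 against pMSCV was -0.48 for SRF, 0.40 for SRF-FOXO1, 0.29 for SRF-RELA, -0.13 for SRF-ICA1L and -0.23 for SRF-PDGFRB, beside medians over all genes between -0.02 and 0.01. Of the 9, 2, 5, 5, 4 and 4 lay above pMSCV in these lines.

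**Figure D2:**
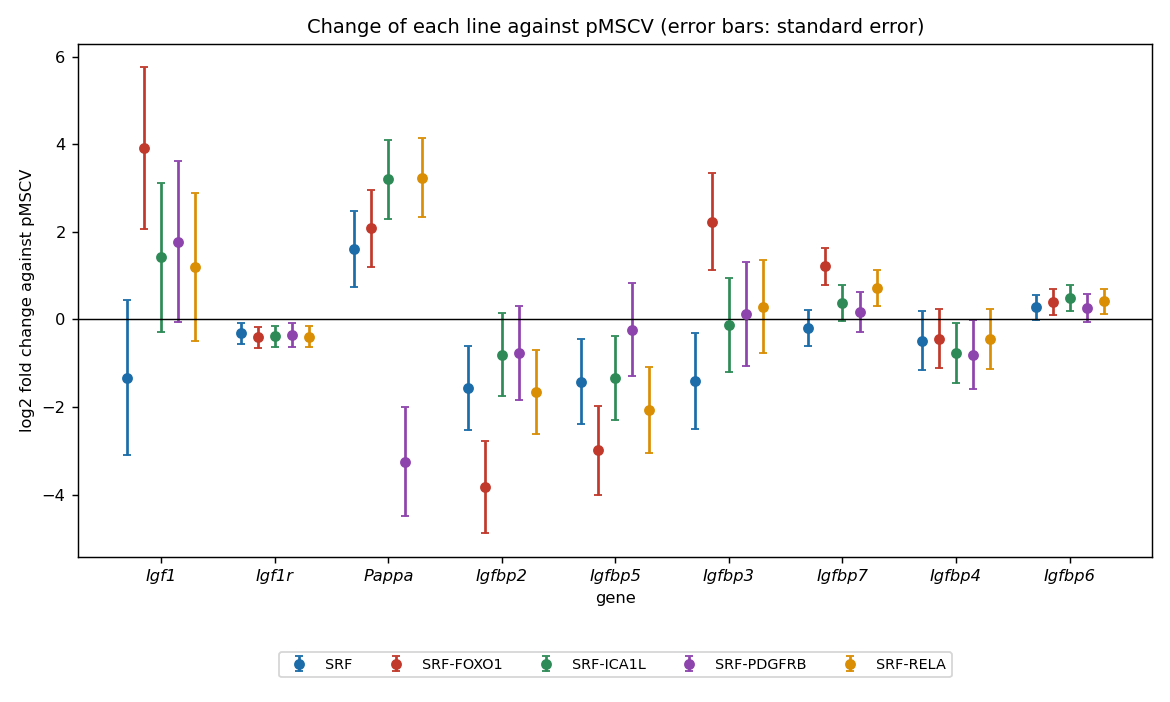
Log2 fold change with its standard error for each of the 9 genes in each of the 5 lines against pMSCV, from the fit by group of 17 libraries. The Pappa estimates lie at 3.20 and 3.24 in SRF-ICA1L and SRF-RELA and at -3.25 in SRF-PDGFRB, while those of Igf1r stay within 0.41 of 0.

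Libraries also differed by the replicate number in their titles, across the table and not only in the members. In the 12 libraries described next, the number held between 2.41% (Igfbp3) and 57.8% (Igfbp4) of a member's variance in log2 CPM, beside a median of 49.6% over all genes. The group held between 2.80% (Igfbp4) and 49.7% (Igfbp5), beside a median of 19.5%. In SRF-RELA, SRF-ICA1L, SRF and pMSCV, libraries with the same number deviated together from their group means, so these 12 libraries were also fitted with the number as a block. Because they were chosen for this shared deviation in the same counts, differences among numbers within them were favoured in advance. The shares and tests by number in the 12 are therefore not separate support for it. In the 12 libraries, 6 of 9 members differed among replicate numbers by the edgeR test, where 51.2% of all genes did: Igf1 (adjusted p = 0.0364), Igf1r (0.0156), Igfbp2 (0.0105), Igfbp4 (0.0211), Igfbp5 (0.0147) and Pappa (0.0174). Over all 17 libraries only Pappa passed that test (adjusted p = 0.0470, 8.17% of genes). Within the 12, libraries numbered 3 stood above those numbered 1 by a log2 difference of 3.30 for Igf1, 1.49 for Igfbp5 and 1.23 for Igfbp2, and below them for Pappa (-2.29). What the numbers stand for is not given in the sources used here.

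**Figure D3:**
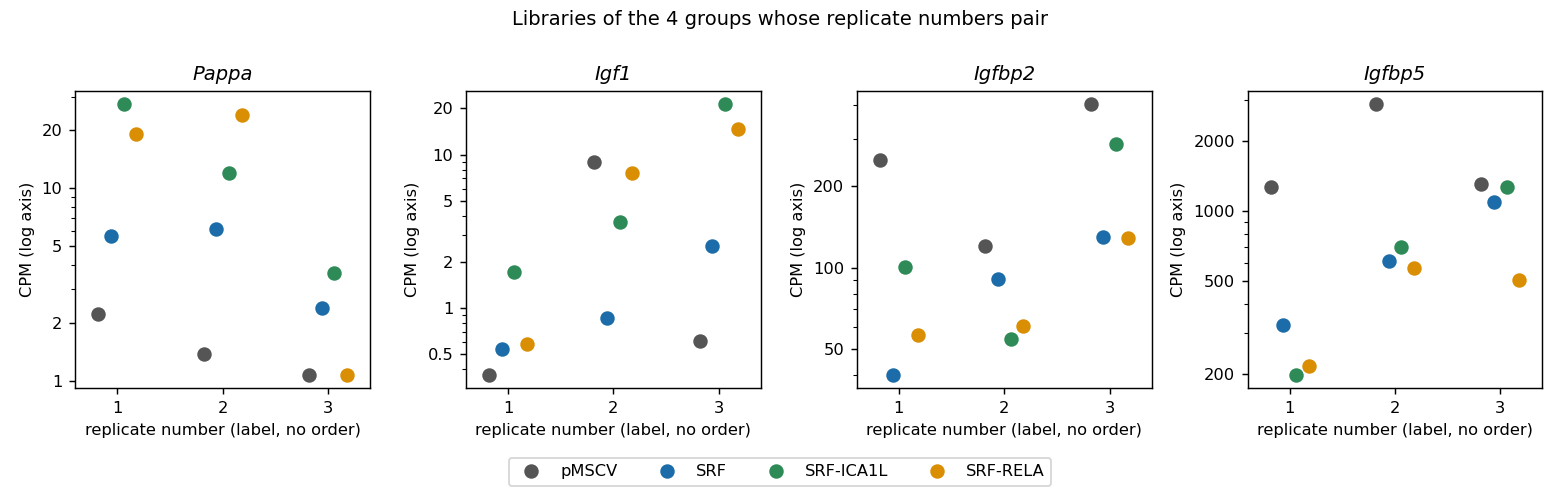
CPM on a log axis for Pappa, Igf1, Igfbp2 and Igfbp5 in the 12 libraries whose numbers paired (SRF-RELA, SRF-ICA1L, SRF and pMSCV), set out by replicate number, which has no order. Pappa in the libraries numbered 3 lies between 1.07 and 3.62 CPM, and in those numbered 1 between 2.21 and 27.3 CPM.

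With the block in those 12 libraries, Pappa rose and Igfbp5 and Igfbp2 fell in SRF-RELA against pMSCV, 3 of 9 members where 6.07% of genes passed. Pappa rose in SRF-ICA1L against pMSCV, 1 of 9 members where 2.81% of genes passed. For SRF against pMSCV the count was 0 of 9 (0.0133% of genes; 3 members at an unadjusted p under 0.05). For SRF-ICA1L and SRF-RELA against SRF it was also 0 of 9 by edgeR (0.0929% and 0.657% of genes; 2 and 1 members at an unadjusted p under 0.05). The members are taken in turn below, by role.

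Igf1, the ligand gene, lies on chromosome 10 from 87858265 to 87937042 on the plus strand. Its level was 0.369, 8.95 and 0.608 CPM in pMSCV, 0.545, 0.869 and 2.53 in SRF, 10.3, 0.938 and 139 in SRF-FOXO1, 1.73, 3.66 and 21.2 in SRF-ICA1L, 0.276 and 22.5 in SRF-PDGFRB, and 0.588, 7.62 and 14.6 in SRF-RELA, in the order of the replicate numbers. One SRF-FOXO1 library, with 3117 of its counts on Igf1, stood above all others, and the lowest held 6 counts. Every group overlapped each of the others. Ranked by mean level the order was SRF-FOXO1, SRF-PDGFRB, SRF-ICA1L, SRF-RELA, pMSCV and SRF, and no neighbours in it were apart. The log2 fold change of SRF-FOXO1 against SRF was 5.24 (SE 1.98, adjusted p = 0.211), and 2.09 without SRF-FOXO1 replicate 3. The replicate numbers of SRF and SRF-FOXO1 paired more weakly than those of the 12 libraries (r of 0.220 to 0.330). With the block in their 6 libraries the log2 fold change was 4.0 (edgeR, adjusted p = 0.159).

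Igf1r, the receptor gene, lies on chromosome 7 from 67952827 to 68233668 on the plus strand. It measured 65.7, 82.6 and 66.6 CPM in pMSCV, 53.6, 60.5 and 58.3 in SRF, 49.4, 48.0 and 64.4 in SRF-FOXO1, 38.8, 66.7 and 58.8 in SRF-ICA1L, 45.7 and 65.9 in SRF-PDGFRB, and 38.8, 73.4 and 51.4 in SRF-RELA. The pMSCV mean was the highest at 71.6 ± 9.52 CPM (SD, n = 3). All 3 pMSCV libraries lay above those of SRF and SRF-FOXO1, and overlapped the other groups. The 5 lines had means between 53.9 and 57.5 CPM, close together beside their SDs of 3.53 to 17.5 CPM. The difference from pMSCV was -0.32 in log2 for SRF (SE 0.24) and -0.41 for SRF-FOXO1, and neither passed the test.

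Pappa, the protease gene, lies on chromosome 4 from 65124174 to 65357509 on the plus strand. Its level was 2.21, 1.37 and 1.07 CPM in pMSCV, 5.63, 6.17 and 2.40 in SRF, 7.80, 8.25 and 3.66 in SRF-FOXO1, 27.3, 12 and 3.62 in SRF-ICA1L, 0.184 and 0.133 in SRF-PDGFRB, and 19, 23.9 and 1.07 in SRF-RELA. Every SRF, SRF-FOXO1 and SRF-ICA1L library stood above every pMSCV library. Both SRF-PDGFRB libraries stood below every other library, and SRF-RELA replicate 3 lay at the pMSCV level.

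The SRF-PDGFRB values rest on 4 and 3 counts. Their 7 counts together gave 0.158 CPM with an exact 95% Poisson interval of 0.0636 to 0.326, while the 102 counts of pMSCV gave 1.55 CPM with an interval of 1.26 to 1.88; these intervals cover counting error only. The intervals of the 2 groups did not overlap, and the log2 fold change was -3.25 (SE 1.25, adjusted p = 0.569) against pMSCV and -4.85 (SE 1.28, adjusted p = 0.511) against SRF by edgeR. Ranked by mean level, SRF-RELA, SRF-ICA1L, SRF-FOXO1 and SRF overlapped in turn, SRF and pMSCV were apart, and so were pMSCV and SRF-PDGFRB. Asked whether it varied among the 6 groups at all, Pappa had the smallest p of the 9 members (0.00135 unadjusted, edgeR), with an adjusted p of 0.242. In that test 0 of 9 members passed, where 0.0797% of genes did. An unadjusted p under 0.05 was reached by 2 of 9 members and by 1308 of 15062 genes.

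In the fit by group, Pappa differed from pMSCV in log2 by 1.61 in SRF, 2.08 (SE 0.87, adjusted p = 0.195) in SRF-FOXO1, 3.20 (SE 0.90, adjusted p = 0.662) in SRF-ICA1L and 3.24 (SE 0.91, adjusted p = 0.413) in SRF-RELA. When the 12 libraries were fitted with the block it rose by 2.93 in SRF-ICA1L (SE 0.64, adjusted p = 0.0444) and by 2.82 in SRF-RELA (SE 0.65, adjusted p = 0.0338). Against the pMSCV library of the same number, Pappa was higher in 3 of 3 SRF-ICA1L libraries and in 2 of 3 SRF-RELA libraries, the exception being replicate 3 at 1.07 CPM in both. Each library of the compared groups was left out in turn in that block fit. The SRF-ICA1L difference then lay between 2.46 and 3.46 and passed in 1 of 6 fits, and the SRF-RELA difference lay between 2.08 and 3.4 and passed in 2 of 6.

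Igfbp5, which encodes a binding protein that PAPP-A cleaves, was the member with the most counts. Its level was 1267, 2864 and 1309 CPM in pMSCV, 325, 612 and 1097 in SRF, 379, 131 and 178 in SRF-FOXO1, 199, 701 and 1268 in SRF-ICA1L, 62.6 and 3030 in SRF-PDGFRB, and 216, 572 and 507 in SRF-RELA. All libraries of SRF, SRF-FOXO1 and SRF-RELA lay below all of pMSCV, SRF-ICA1L reached into the pMSCV range by 1 library, and the 2 SRF-PDGFRB libraries were the lowest and the highest of the 17. In SRF-FOXO1 the log2 fold change against pMSCV was -2.98 (SE 1.02, adjusted p = 0.125).

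With the block in 12 libraries Igfbp5 fell by 2.20 in log2 in SRF-RELA (SE 0.41, adjusted p = 0.0150), and was lower than pMSCV in 3 of 3 number-matched pairs. Leaving out 1 library at a time gave -2.63 to -1.86, and 3 of 6 such fits passed. The difference was -1.63 in SRF-ICA1L (adjusted p = 0.0706) and -1.59 in SRF (adjusted p = 0.209).

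Igfbp2, its neighbour, encodes a binding protein that lowers access of ligand to the receptor in many tissues. It measured 249, 120 and 402 CPM in pMSCV, 40.1, 90.7 and 129 in SRF, 23.5, 9.24 and 21.6 in SRF-FOXO1, 101, 54.6 and 286 in SRF-ICA1L, 5.74 and 298 in SRF-PDGFRB, and 56.2, 60.8 and 129 in SRF-RELA. The 3 SRF-FOXO1 libraries lay below every other library but 1, the lower SRF-PDGFRB library. Against pMSCV the log2 fold change in SRF-FOXO1 was -3.83 (SE 1.05, adjusted p = 0.0736), a 14.2-fold lower level, and against SRF it was -2.26 (SE 0.99, adjusted p = 0.242). Fitted with the block, Igfbp2 fell by 1.63 in log2 in SRF-RELA (SE 0.38, adjusted p = 0.0364). Leaving out 1 library at a time gave -1.90 to -1.26, of which 1 of 6 fits passed.

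The replicate numbers did not pair SRF-PDGFRB with the other groups, and its libraries differed from each other by 51.9 times in Igfbp2 and 48.4 times in Igfbp5. The 6 myoblast markers, among them Myod1 and Des, summed to 273 and 2019 CPM in the same libraries. That sum was 1305 to 1759 CPM in pMSCV, 689 to 1329 in SRF, 313 to 394 in SRF-FOXO1, 431 to 1077 in SRF-ICA1L and 382 to 782 in SRF-RELA. Vcam1, which ran from 62.6 to 293 CPM, made up most of the 273 CPM and a large part of the SRF-FOXO1 sums. The other markers set the difference between the SRF-PDGFRB libraries. Myod1 was at 5.69 and 111 CPM there, Myf5 at 4.41 and 32.3, and Des at 44.5 and 892. Cdh15 was at 12.9 and 412 CPM, and Chrna1 at 15.5 and 408. The 11 markers of differentiating muscle that were in the table, of 12 listed, summed to 13.7 and 529 CPM in the SRF-PDGFRB libraries and to 149 to 283 in pMSCV, 37.5 to 101 in SRF, 35.9 to 64.8 in SRF-FOXO1, 53.7 to 90.6 in SRF-ICA1L and 37.4 to 257 in SRF-RELA. Of these, Mymx, Ckm and Mybph were at 0 in at least 1 library. Where Igfbp2 and Igfbp5 were low the myoblast marker sum was low too, and its part in the result was not tested. In libraries of whole cultures, fewer cells of a type and less RNA per cell cannot be told apart.

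By the same block fit, 4 of 6 myoblast markers fell in SRF-ICA1L against pMSCV, where 2.81% of all genes passed. In SRF-RELA 5 of 6 fell (6.07% of genes). Myod1, the master regulator of myoblast identity, fell by 1.42 and 1.70 in log2 in these lines. Cdh15, the adhesion molecule M-cadherin, fell by 1.42 and 2.01. The others were Des and Chrna1 in both lines and Myf5 in SRF-RELA. Vcam1 passed in neither line. It lay above pMSCV in every number-matched pair of SRF-RELA, while the SRF-ICA1L pairs went both ways. Of the 11 differentiating muscle markers, 4 and 5 fell: Tnni1, Mybph, Myl4 and Myog in both, and Myh3 in SRF-RELA. Mymk, Mymx, Ckm, Acta1, Actc1 and Tnnt3 passed in neither line. In replicate 2 the sum of the 11 was higher in SRF-RELA than in pMSCV (257 against 149 CPM). In replicates 1 and 3 it was lower (79.6 against 210 and 37.4 against 283 CPM). Myog, the myogenin gene, fell by 2.44 in SRF-ICA1L (adjusted p = 0.0224) and by 3.05 in SRF-RELA (adjusted p = 0.00694). Against SRF, Cdh15 fell by 1.31 in SRF-RELA. In the fit by group 0 of either list passed in any of the 5 lines against pMSCV. The median log2 fold change of the 6 myoblast markers was -2.79 in SRF-FOXO1.

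**Figure D4:**
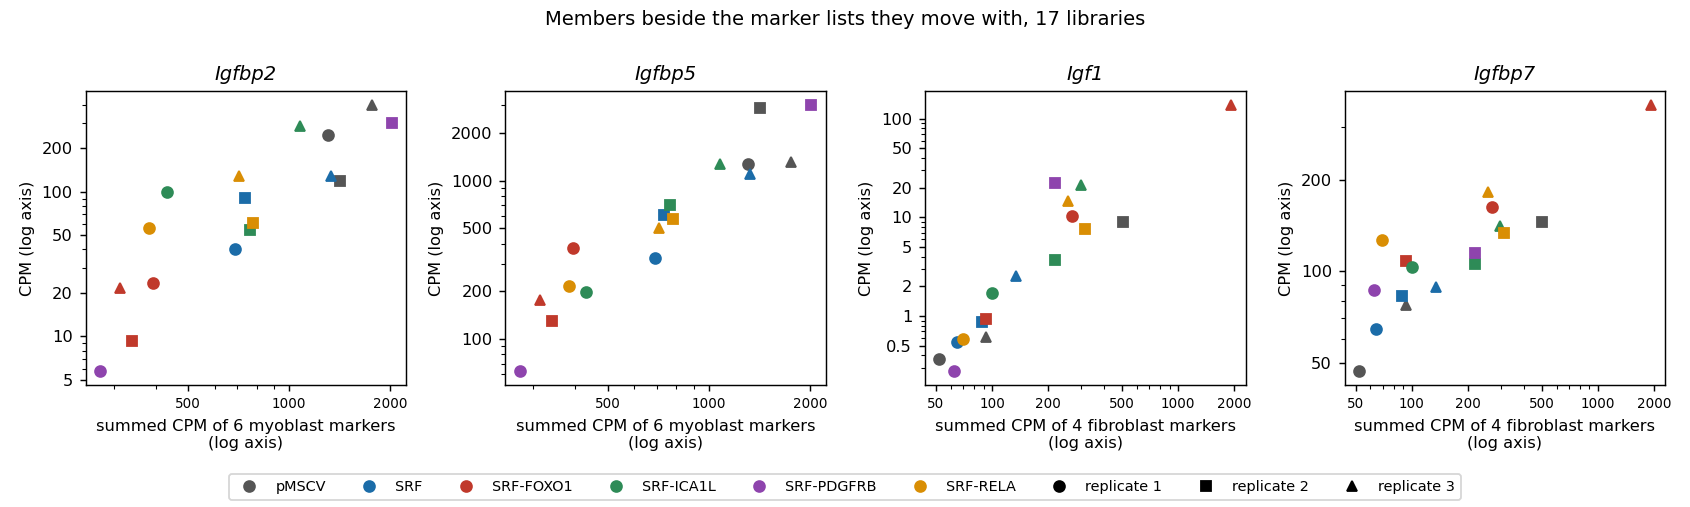
CPM of Igfbp2 and Igfbp5 against the summed CPM of 6 myoblast markers, and of Igf1 and Igfbp7 against the summed CPM of 4 fibroblast markers, in 17 libraries on log axes, with colour for the group and shape for the replicate number. The SRF-PDGFRB libraries take opposite corners of the first 2 panels (273 and 2019 CPM of markers), and SRF-FOXO1 replicate 3 stands alone at 1922 CPM in the last 2. Vcam1 made up most of the 273 CPM.

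Igfbp7, a low-affinity IGF binder, lies on chromosome 5 from 77349240 to 77408041 on the minus strand, where its annotation overlaps that of Polr2b on the other strand. It measured 46.8, 146 and 77.2 CPM in pMSCV, 64.7, 83.2 and 88.9 in SRF, 163, 108 and 355 in SRF-FOXO1, 103, 106 and 141 in SRF-ICA1L, 86.6 and 115 in SRF-PDGFRB, and 127, 134 and 183 in SRF-RELA. All libraries of SRF-FOXO1, SRF-ICA1L and SRF-RELA lay above all of SRF. Only through replicate 2 did pMSCV overlap the fusion lines, while its other libraries already overlapped SRF. The log2 fold change in SRF-FOXO1 was 1.21 against pMSCV (SE 0.42, adjusted p = 0.128) and 1.40 against SRF (SE 0.42, adjusted p = 0.181). Without SRF-FOXO1 replicate 3 these were 0.59 and 0.78, and without pMSCV replicate 2 the first was 1.75 and passed (adjusted p = 0.0498). In SRF-RELA it was 0.91 against SRF (SE 0.42, adjusted p = 0.975).

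Igfbp3, the main carrier of IGFs in blood, lies on chromosome 11 from 7206086 to 7213923 on the minus strand. It measured 6.27, 33.1 and 2.43 CPM in pMSCV, 8.31, 5.30 and 2.09 in SRF, 12.9, 8.44 and 175 in SRF-FOXO1, 12.7, 8.44 and 17.1 in SRF-ICA1L, 12.1 and 18.5 in SRF-PDGFRB, and 11.9, 6.48 and 32.8 in SRF-RELA. Every library of SRF-FOXO1, SRF-ICA1L and SRF-PDGFRB lay above all of SRF, in part by narrow gaps (8.44 against 8.31 CPM). The log2 fold change of SRF-FOXO1 against SRF was 3.65 (SE 1.18, adjusted p = 0.189), and 1.03 without SRF-FOXO1 replicate 3, whose 175 CPM set it. With the block in the 6 libraries of SRF and SRF-FOXO1 it was 2.17 (adjusted p = 0.417).

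SRF-FOXO1 replicate 3 was the highest library for Igf1, Igfbp3, Igfbp6 and Igfbp7 alike. The 4 fibroblast markers in the table, of 6 listed (Pdgfra, Dcn, Lum and Col1a1), summed to 1922 CPM in that library, against 269 and 92.7 CPM in the other SRF-FOXO1 libraries. The sum was 52.2 to 503 CPM in pMSCV, with 503 in replicate 2, 64.5 to 135 in SRF, 99.8 to 299 in SRF-ICA1L, 62.4 to 218 in SRF-PDGFRB and 69.4 to 315 in SRF-RELA. Its part in the values of Igf1, Igfbp3 and Igfbp7 was not tested. Dcn is also on the list of imprinted genes. That list summed to 1809 CPM in SRF-FOXO1 replicate 3, against 498 and 133 in the other SRF-FOXO1 libraries. How much of the fibroblast sum came from Dcn alone is not given here. Of 3 macrophage markers in the table, of 5 listed, Lyz2, the lysozyme gene, rose with the block in SRF-RELA by 2.42 against pMSCV and by 2.58 against SRF. In SRF-FOXO1 it was at 8.50, 5.25 and 6.87 CPM, against 0.738, 1.54 and 0.0935 in pMSCV, with no overlap (log2 fold change 3.10, adjusted p = 0.208). The 3 macrophage markers (Cd68, Csf1r and Lyz2) summed to 10.1 to 12.6 CPM in SRF-FOXO1, 3.83 to 7.19 in pMSCV, 4.10 to 6.81 in SRF, 3.34 to 10.4 in SRF-ICA1L, 2.49 and 11.9 in SRF-PDGFRB and 3.22 to 10.7 in SRF-RELA. Without Lyz2 the sum, Cd68 and Csf1r together, overlapped between SRF-FOXO1 and pMSCV. In SRF-RELA Cd68 and Csf1r together lay below the pMSCV library of the same number in replicates 2 and 3 and above it in replicate 1. The part of the macrophage marker sum in the SRF-FOXO1 values of the members was not tested. The endothelial, adipocyte and osteoblast lists had 2 genes each in the table, and 0 passed.

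Igfbp4, which encodes the best-known PAPP-A substrate, lies on chromosome 11 from 99041244 to 99054392 on the plus strand. It was at 2.40, 16.3 and 2.43 CPM in pMSCV and between 2.50 and 9.26 CPM in the other 14 libraries. The means ran from 4.04 ± 1.5 CPM in SRF-PDGFRB (SD, n = 2) to 7.03 ± 8.0 in pMSCV (SD, n = 3), with overlap between every pair of groups that were neighbours in rank.

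Igfbp6, an IGF2-preferring binding protein, lies on chromosome 15 from 102144362 to 102149511 on the plus strand. It measured 117, 239 and 212 CPM in pMSCV, 165, 222 and 302 in SRF, 183, 226 and 342 in SRF-FOXO1, 270, 238 and 289 in SRF-ICA1L, 188 and 267 in SRF-PDGFRB, and 235, 250 and 274 in SRF-RELA. The groups overlapped, and their means lay between 189 ± 64.1 CPM in pMSCV (SD, n = 3) and 266 ± 25.6 in SRF-ICA1L (SD, n = 3). Its log2 fold changes against pMSCV were 0.28 in SRF, 0.40 in SRF-FOXO1 and 0.49 in SRF-ICA1L, and none passed.

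Counted by libraries that did not overlap, members set apart from pMSCV numbered 3 of 9 for SRF (9.16% of all genes), 4 for SRF-FOXO1 (23.0%), 1 for SRF-ICA1L (10.2%), 1 for SRF-RELA (11.1%) and 1 for SRF-PDGFRB (15.9%). Those set apart from SRF numbered 3 of 9 for SRF-FOXO1 (35.4%), 2 for SRF-ICA1L (7.58%), 1 for SRF-RELA (10.9%) and 2 for SRF-PDGFRB (25.7%). The counts of 1, and those of SRF-FOXO1 and SRF-PDGFRB against SRF, lie near or below the share over all genes. The 3 set apart in SRF were Igf1r, Igfbp5 and Pappa, and the 4 in SRF-FOXO1 were these and Igfbp2.

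Other genes of the pathway were read from lists. They were not refitted with libraries left out. In the fit by group 1 of them passed against pMSCV, in SRF-FOXO1, where 0.710% of all genes passed. Igf2bp2, which encodes an RNA-binding protein of Igf2 mRNA, fell by 1.19 in log2 in SRF-FOXO1 (SE 0.24, adjusted p = 0.0426). It measured 131, 152 and 91.3 CPM in pMSCV and 65.0, 65.3 and 33.3 in SRF-FOXO1, with no overlap. With the block in 12 libraries it fell by 0.72 in SRF-ICA1L (2.81% of all genes passed) and by 0.93 in SRF-RELA (6.07%). Igf2bp3, of the same family of 3, fell by 1.59 in SRF-RELA. In SRF-FOXO1, outside the block fit, it was at 5.27, 2.25 and 2.72 CPM, against 30.9, 8.77 and 14.2 in pMSCV.

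Among receptors and adaptors, 9 of 12 listed genes were in the table. With the block against pMSCV, 1 fell in SRF-ICA1L (2.81% of all genes passed). In SRF-RELA 1 fell and 1 rose (6.07%). Grb14, an adaptor that inhibits the insulin receptor, fell by 1.26 in SRF-ICA1L (adjusted p = 0.0131) and by 1.25 in SRF-RELA (adjusted p = 0.00763), and against SRF by 1.79 (adjusted p = 0.0209) and 1.78 (adjusted p = 0.00698). It was at 5.35, 4.89 and 9.16 CPM in pMSCV, at 2.55, 2.01 and 3.39 in SRF-ICA1L, and at 1.96, 2.14 and 4.10 in SRF-RELA, and neither fusion overlapped pMSCV. The other fusions, outside the block fit, also lay below every pMSCV library. Grb14 was at 2.70, 1.78 and 1.83 CPM in SRF-FOXO1 and at 1.01 and 4.80 in SRF-PDGFRB. Gab1, a docking protein, rose by 0.71 in SRF-RELA. Igf2r, which clears IGF2 and has no kinase, ran from 29.9 to 129 CPM, Insr, the insulin receptor gene, from 36.4 to 65.1, and Irs1, the adaptor, from 59.1 to 271, and none of these 3 passed.

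Among binding protein proteases and their inhibitors, all 10 listed were in the table. With the block 1 rose and 1 fell in SRF-ICA1L (2.81% of all genes passed) and in SRF-RELA (6.07%). Adam12, a protease that cleaves IGFBP3 and IGFBP5, rose by 1.55 in SRF-ICA1L (adjusted p = 0.0123) and by 1.69 in SRF-RELA (adjusted p = 0.00422). Its difference was of like size in SRF with the block (1.56, adjusted p = 0.0947) and, by group, in SRF-FOXO1 (1.58, adjusted p = 0.152). It was at 11.8, 6.13 and 26.8 CPM in pMSCV, 30.9, 31.3 and 51.1 in SRF and 36.1, 32 and 65.2 in SRF-FOXO1, so both of these lines lay above pMSCV in every library. Stc2, an inhibitor of PAPP-A, fell by 1.26 in SRF-ICA1L (adjusted p = 0.0138) and by 0.90 in SRF-RELA (adjusted p = 0.0274). It was at 44.8, 14.8 and 13.9 CPM in pMSCV, 14.4, 7.90 and 6.0 in SRF-ICA1L and 20.9, 6.94 and 9.42 in SRF-RELA, lower in every number-matched pair though the groups overlapped. Htra1, another secreted protease, ran from 66.5 to 305 CPM and did not pass.

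Of the 18 genes of the PI3K-AKT and mTOR arm, 1 passed with the block in SRF-ICA1L (2.81% of all genes) and in SRF-RELA (6.07%). It was Eif4ebp1, a repressor of translation that mTOR controls, which fell by 0.60 and 0.59. In SRF-FOXO1, outside the block fit, Eif4ebp1 was at 78.8, 93.8 and 51.3 CPM, against 207, 159 and 127 in pMSCV. The count of 1 of 18 lies near the share over all genes in SRF-RELA. Of 8 other carriers and related proteins in the table, of 11 listed, 0 passed with the block. Of 6 imprinted genes in the table, of 13 listed, Peg3, an imprinted zinc finger gene, fell by 1.49 in SRF-ICA1L and by 2.21 in SRF-RELA. In SRF-FOXO1 Peg3 was at 77.2, 26.5 and 23.3 CPM, against 622, 324 and 337 in pMSCV. The SRF-PDGFRB libraries were at 17.7 and 404 CPM. H19, the imprinted RNA next to Igf2, had its lowest and highest levels, 16.3 and 1627 CPM, in the SRF-PDGFRB libraries and did not pass.

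Across the 17 libraries, Igfbp5 was most like Anxa6 (0.969), H19 (0.954) and Frmpd1 (0.953), by Pearson correlation of log2 CPM among 9984 genes. The libraries are not independent points, since they share groups and replicate numbers, so these values describe likeness only.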

How the data were processed

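Raw read counts per gene, as deposited by the authors in 1 table, were used for 17 libraries. Per the submitters' processing notes, the tools were FastQC 0.11.8, Trimmomatic 0.39, HISAT2 and featureCounts from Subread 2.0.0, with build GRCm38. Per the labels' protocols, mRNA libraries came from a stranded kit. The annotation, the strand setting and any filter are not given in the sources used here, so reads of overlapping genes, such as Igfbp7 and Polr2b, may have been shared. Every gene reached 10 counts in 3 libraries, so a gene limited to both SRF-PDGFRB libraries has no row. Rows without a symbol numbered 1531, and all rows carried a gene identifier. Columns without a sample numbered 0.

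Counts were scaled by TMM and fitted with the edgeR 4.0.16 quasi-likelihood test (robust; R 4.3.3, limma 3.58.1), by group, on the whole table, with Benjamini-Hochberg adjustment over all 15062 genes and a threshold of 0.05. The edgeR low-count filter removed 0 genes. The standard error is the log2 fold change over the square root of F. The biological coefficient of variation was 36.5%. Same-numbered libraries deviated together in SRF-RELA, SRF-ICA1L, SRF and pMSCV (r of 0.392 to 0.789 over 6 pairs of groups; at most 0.114 for different numbers), where the number was also fitted as a block. This pairing comes from the data, not from the labels. Between SRF and SRF-FOXO1 it was weaker (r of 0.220 to 0.330, and at most 0.0790 for different numbers). It did not hold between pMSCV and SRF-FOXO1 (r of -0.195 to 0.170, and at most 0.188 for different numbers). The lowest r of SRF-FOXO1 was 0.0714 with SRF-ICA1L and -0.0130 with SRF-RELA. Alternatives were DESeq2 1.42.0, median-ratio scaling, a filter of 1 CPM in 2 libraries, fits of 2 groups alone and leaving out each library. All members are named; from the other lists, genes that passed were named, with at most 6 per list, along with Igf2r, Insr, Irs1, Stc2, Htra1, H19 and Myog. The members and lists were chosen with earlier results of these data known. The genes most like Igf1 are not reported here.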

Additional observations from a re-analysis of the deposited data

Results flagged for a closer look

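Pappa stood apart because lines moved opposite ways from pMSCV. All libraries of SRF, SRF-FOXO1 and SRF-ICA1L lay above all 3 pMSCV libraries, and both SRF-PDGFRB libraries lay below them. In any single line, such separation from pMSCV was not rare over all genes, by the shares given above. The pairs of lines below were picked for this separation in the same values, so their p-values are not separate support for it. The difference between lines was tested with edgeR, in log2 units. It was 4.85 between SRF and SRF-PDGFRB (SE 1.28, unadjusted p = 0.00200, adjusted p = 0.511). It was 5.33 between SRF-FOXO1 and SRF-PDGFRB (SE 1.30, unadjusted p = 0.00108, adjusted p = 0.705). It was 6.45 between SRF-ICA1L and SRF-PDGFRB (SE 1.34, unadjusted p = 0.000286, adjusted p = 0.308). None passed in the fit by group over all genes, of which 0.0266% passed between SRF-FOXO1 and SRF-PDGFRB, 0.0332% between SRF-ICA1L and SRF-PDGFRB and 0.0531% between SRF and SRF-PDGFRB, and the 2 SRF-PDGFRB libraries hold 7 Pappa counts in all. Other fits differed. With the replicate block in 17 libraries Pappa passed against SRF (adjusted p = 0.0355) and SRF-ICA1L (adjusted p = 0.0178) and not against SRF-FOXO1 (adjusted p = 0.0662), and by DESeq2 it passed against SRF (adjusted p = 0.00195).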

How the results depend on the processing

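Each of 15 member differences was refitted under the alternatives, 201 fits in all. They were picked for an edgeR unadjusted p under 0.05 by group, or for passing with the block in 12 libraries. Being picked from the same counts, they are not separate support for a stable direction. No difference changed direction, 178 fits kept the side of the threshold, and 23 newly passed. Among the 23 are block fits that served for the picking. Members passing, 0 by group in 17 libraries, became 3 by DESeq2 for SRF-FOXO1, both against SRF and against pMSCV, and 1 (Pappa) in SRF-ICA1L and SRF-RELA against pMSCV and SRF-PDGFRB against SRF. The replicate block in 12 libraries gave 1 in SRF-ICA1L and 3 in SRF-RELA against pMSCV. A replicate block in 17 libraries, where numbers do not pair all groups, gave 1 in SRF-FOXO1 against pMSCV (Igfbp2, -3.69, adjusted p = 0.0444, 6.78% of genes passing), 1 in SRF-PDGFRB against SRF (Pappa, -5.37, adjusted p = 0.0355, 0.212%) and 1 (Pappa) among the 6 groups (adjusted p = 0.0333, 0.365%). It also passed Pappa between SRF-PDGFRB and SRF-ICA1L (-6.71, adjusted p = 0.0178, 0.133%) and between SRF-PDGFRB and SRF-RELA (-6.62, adjusted p = 0.0233, 0.0797%). The test among replicate numbers went from 1 member in 17 libraries to 6 in the 12 chosen for their pairing. The causes were not tested.

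Leaving out 1 library at a time gave 0 to 1 members in SRF-FOXO1 against pMSCV (Igfbp7, without pMSCV replicate 2), 0 to 1 among the 6 groups (Pappa, without SRF-RELA replicate 3), 0 to 4 among replicate numbers, and 0 in every other comparison. In the block fit of 12 libraries it gave 0 to 3 members for SRF-ICA1L and 0 to 5 for SRF-RELA. Both highest counts came without pMSCV replicate 2 and did not include Pappa, and without pMSCV replicate 1 both counts were 0. That fit by left-out library, and the block of SRF and SRF-FOXO1 alone (0 members), were chosen after seeing the data. The 12 libraries of the block fit were likewise chosen from the pairing seen in these counts. A filter on low counts left 13645 genes and median-ratio scaling shifted the median log2 fold change by at most 0.0102, and neither changed a count of members. Depth limits Pappa in SRF-PDGFRB and Igf1 in libraries with few counts.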
